A study of Mus musculus with 26 samples.

Results

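The genes described here carry the names of cytosolic ribosomal proteins, though a name does not show that each product is part of the ribosome. They were chosen by symbol alone: Rpl or Rps followed by a number, with the stalk genes Rplp0, Rplp1 and Rplp2 and the paralogs whose names end in l or l1, leaving out pseudogenes and the S6 kinases. This gave 83 of the 21761 genes listed in a first count table (32 of the small subunit, 51 of the large) and 84 of the 21761 in a second, which also names Rpl32l. Genes of the cytosolic ribosome with other names, such as Rpsa, Fau and Rack1 (Gnb2l1 in the first table), and Rpl36al fall outside the rule. The rule uses no expression value, though it was set with earlier results of these data known.

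Messenger RNA was sequenced in 26 libraries of CD4+ T cells. All mice were on the C57BL/6 background, and cells came from their lymph nodes and spleen. The first table held 12 libraries from Foxp3-eGFP reporter mice aged 5 to 6 weeks, in which eGFP marks cells that express Foxp3, the transcription factor of regulatory T (Treg) cells. These were naive cells, Th0 cells grown with anti-CD3/CD28, and cultures of induced Treg (iTreg) cells given TGFb on its own or joined by vitamin C, by retinoic acid, or by both supplements (n = 2 libraries a group). Treg cells taken by sorting from mice aged 3 weeks made up the rest of that table: 4 libraries with floxed Tet2 and Tet3, the Foxp3-eGFP reporter and CD4-Cre, which deletes in the T lineage (Tet2/3-deficient), and 4 with the same floxed alleles and reporter without Cre (control). TET enzymes oxidise 5-methylcytosine, and vitamin C raises their activity. In the second table were TGFb iTreg sorted as Foxp3-positive on day 6, and Foxp3-negative cells sorted on day 6 after such iTreg had been restimulated with anti-CD3/CD28, both from reporter mice aged 12 to 14 weeks (n = 3 each). Whether replicates were separate cultures or animals is not in the labels, and a p here covers only the spread from library to library.

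Ribosomal proteins are made in near equal numbers, since each ribosome carries 1 copy of almost all of them, and their mRNAs are among the most abundant in a dividing cell. Most of these mRNAs start with a 5′ terminal oligopyrimidine (TOP) tract, an unbroken run of C and T that places their translation under mTORC1 control. Naive T cells are small and quiescent, and activation through the antigen receptor and CD28 raises their size, their Myc and their output of ribosomes. The RNA measured here is a level relative to all other mRNA in a library, so it shows neither translation nor ribosomes per cell, and in bulk samples fewer cells of a type and less RNA per cell cannot be told apart.

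To show the tract at genes on which the results below turn, 20 bases before and 20 bases from the RefSeq transcription start are printed 5′ to 3′ on the gene's strand (build GRCm38.p6), with the longest run of C and T in capitals. Rps27 and its paralog Rps27l moved in opposite directions between naive and Th0 cells, Rpl22l1 and Rpl7l1 are paralogs with ample counts that changed in several comparisons, and Rps6 stands for the bulk of the genes.
Rps27, chr3:90213629-90213668, minus strand: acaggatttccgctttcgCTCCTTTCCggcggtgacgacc
Rps27l, chr9:66946066-66946105, plus strand: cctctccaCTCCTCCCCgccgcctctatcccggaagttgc
Rpl22l1, chr3:28805488-28805527, plus strand: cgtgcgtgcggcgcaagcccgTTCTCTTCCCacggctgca
Rpl7l1, chr17:46782637-46782676, minus strand: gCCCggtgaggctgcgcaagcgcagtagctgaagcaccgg
Rps6, chr4:86857348-86857387, minus strand: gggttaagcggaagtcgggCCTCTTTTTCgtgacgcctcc
The runs are 9 bases in Rps27 and Rps27l, 10 in Rpl22l1 and Rps6, and 3 in Rpl7l1. Rps27l has 2 RefSeq starts listed, and the start with the longest run is shown. The other genes shown have 1 start listed. The Rps27 and Rps6 runs span the start, the Rps27l run lies wholly before it and the Rpl22l1 run begins just after it. Of the members, 62 matched the RefSeq promoter table, with 74 starts. A run of at least 7 bases of C and T lay within these 40 bases at 54.1% of the 74 starts and at 24.3% of the 32851 starts of all genes. The ETS-type motif CCGGAAG, searched on both strands in the 300 bases from 250 before to 50 after the start, was present at 35.1% of the members' starts and 8.86% of all starts. CACGTG, the E-box that Myc binds, was present at 10.8% and 7.15%, and TATAAA at 9.46% and 13.6%. A match in letters is a description of the window and no evidence of binding.

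The members were among the most abundant mRNAs in every group. Per length, as FPKM (reads scaled by exon length and library total, median over libraries), their median was 979 in the first table (lower quartile 643, upper quartile 1384, 82 members with a count), against 3.47 over all 16713 genes with a count. Members made up 63 of the 100 genes with the highest FPKM there, and 64 of 100 in the other table. Rplp1, which encodes a protein of the stalk that recruits elongation factors, was highest at 2019 FPKM in the first table and 3999 in the second. At the low end of the first table stood the paralogs Rpl7l1 at 45.8 FPKM, Rps4l at 4.74 and Rpl39l at 1.59, beside their core partners Rpl7, Rps4x and Rpl39. Rpl10l, a paralog used in testis, had 0 counts in all libraries. Rpl3l, the muscle paralog of Rpl3, had at most 1 count in any library. Rpl10l and Rpl3l were therefore not tested, which left 81 members tested in the first table; in the second, Rpl26 and Rpl39l also fell under the filter on low counts and 80 were tested.

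How reads were assigned limits single members of this family. GENCODE M21 names 285 mouse pseudogenes after ribosomal protein genes, and how the authors treated reads that fit several copies is not given in the sources used here. Rpl26 had 927 to 1791 counts per library in the first table and 4 to 8 in the second. Rpl32l had 1574 to 3449 counts in the second table, while the same gene, listed as Gm6251, had 5 to 35 in the first. Rpl34 had 59 to 237 counts in the first and 20 to 52 in the second. Such gaps exist inside the first table too: the pseudogene Rps15a-ps6 had 14 to 26 counts in the 12 naive and cultured libraries and 736 to 954 in the 8 ex vivo Treg libraries, and Rps19-ps3 had 5 to 35 and 351 to 490. Rps15a itself showed no such gap, at 577 to 915 CPM (counts scaled to a common library total) in the naive and cultured libraries and 627 to 747 CPM in the ex vivo ones. No level is compared between the tables below.

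Depth was 9647669 to 11640223 counts per library in naive and cultured cells, 11293704 to 17219805 in the second table and 13397602 to 17672302 in Treg cells sorted ex vivo. Foxp3 followed the labels, at 26.0 and 26.3 CPM in naive cells, 15.5 and 16.4 in Th0, 540 to 973 in the iTreg cultures, 542 to 737 in ex vivo Treg cells, 302 to 338 in day 6 cells and 13.6 to 17.8 in restimulated cells. Tet3 was lower in the 4 Tet2/3-deficient libraries (94.9 to 114 CPM) than in the 4 controls (130 to 172 CPM; log2 fold change -0.52 ± 0.10 SE, edgeR adjusted p = 0.0026). Tet2 was not (12.0 to 16.3 against 10.2 to 15.7 CPM; adjusted p = 0.93); counts summed over all exons do not isolate a deleted exon, so the Tet2 deletion rests on the labels. Markers of other cell types are given as summed CPM beside the comparisons. In the Th0 and iTreg cultures of the first table the B cell list (6 of 7 genes in the table) summed to 0.993 to 14.6 CPM, and in control and Tet2/3-deficient Treg cells to 43.9 to 107 and 41.9 to 60.2 CPM.

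By group mean, naive cells gave the largest share of their counts to the ribosomal protein genes within the first table, and the iTreg cultures the smallest. By share of FPKM naive cells were also highest, but Th0 (18.45%) lay below the cultures with retinoic acid (18.95%) and with both supplements (18.94%). The share of counts was 8.35% and 8.75% in the 2 naive libraries, 7.32% and 7.04% in Th0, 5.97% and 6.54% with TGFb alone, 5.84% and 6.16% with vitamin C, 6.35% and 7.51% with retinoic acid, and 6.65% and 6.92% with both. Naive libraries stood above all others of this table, and both Th0 libraries above both TGFb ones, while the vitamin C and TGFb libraries overlapped and the retinoic acid pair spanned the Th0 values. Control Treg cells gave 7.12% ± 0.48 (SD, n = 4; 6.47% to 7.49%) and Tet2/3-deficient cells 7.27% ± 0.21 (SD, n = 4; 7.03% to 7.47%), which overlap. In the second table the share was 12.7%, 14.4% and 14.7% in day 6 iTreg and 11.6%, 11.6% and 11.5% in restimulated cells, with no overlap.

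**Figure D1:**
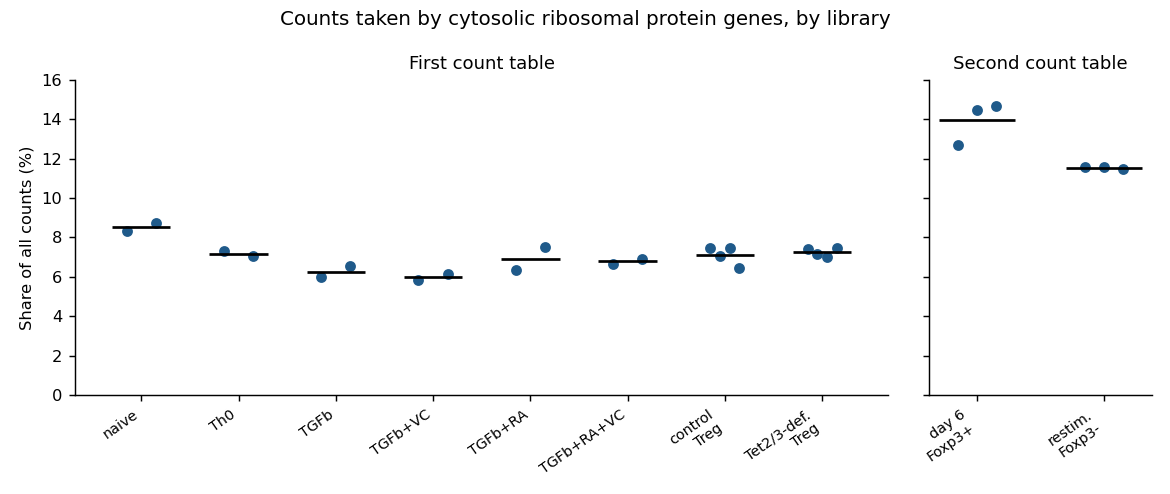
Share of all counts (%) taken by the cytosolic ribosomal protein genes in each library (points) with the group mean (bar), in the first table (left; VC vitamin C, RA retinoic acid) and the second (right). Naive libraries stand highest in the first table at 8.35% and 8.75%, and the 3 restimulated libraries lie below the 3 day 6 libraries.

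The members moved as a block between libraries of the same group. With library 2 set against library 1, 81 of 81 tested members were higher in library 2 of the retinoic acid cultures (median log2 ratio 0.22), 78 in the TGFb cultures (0.12), 77 in the vitamin C cultures (0.07) and 79 in naive cells (0.06), while in Th0 2 were (-0.08) and with both supplements 51 (0.02). Medians over all genes were near 0 in each pair. A shift of all members by 0.1 or 0.2 on the log2 scale was thus also seen between replicates, and each member is no separate replicate of a condition.

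**Figure D2:**
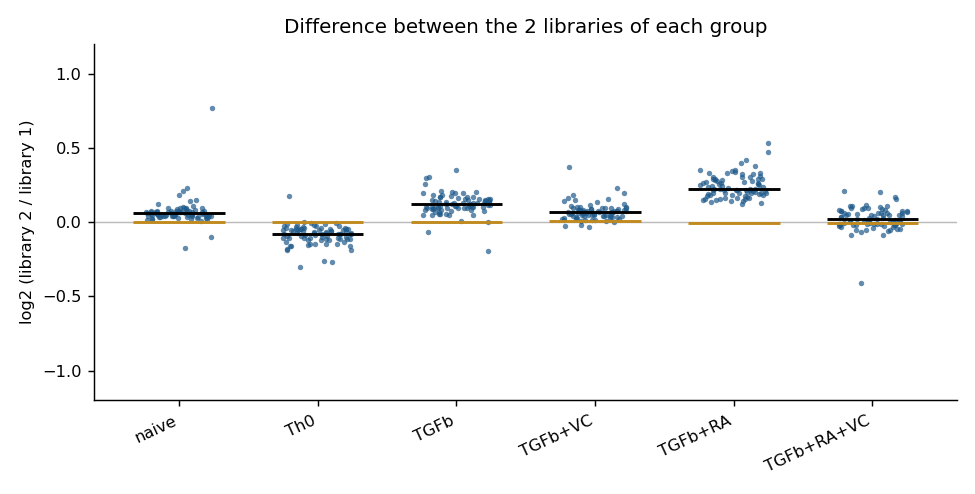
log2 ratio of library 2 to library 1 within each naive or cultured group, for 81 ribosomal protein genes (points), with their median (black bar) and the median over all genes (yellow bar). All 81 points of the retinoic acid pair (TGFb+RA) lie above 0.

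Across the 6 naive and cultured groups the members kept close to a single profile. The ratio of the highest to the lowest group mean was 1.54 at the median member, under 1.5 in 34 of 81 and over 2 in 3: Rps27l (5.56), Rps4l (3.05) and Rps27 (2.09). The highest mean was in naive cells for 71 of 81 members and the lowest in the vitamin C cultures for 73. Since the members moved as a block, these counts are not separate results, and 2 members were called for vitamin C against TGFb. Neither the counts nor the ratio were set against all genes.

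Most ribosomal protein mRNAs were lower, relative to the rest, in activated Th0 cells than in naive cells, and 3 were higher. Of 81 members, 58 were lower and 3 higher in Th0 than in naive cells (edgeR, adjusted p under 0.05); 72.0% of all 11287 genes tested were called in this comparison, 35.7% as higher and 36.4% as lower. Without Th0 library 2, 36 members were called. The erythroid and platelet list (7 of 9 genes in the table) summed to 1.21 to 2.38 CPM in naive cells (Hbb-b1 and Pf4 at 0) and 97.0 to 135 CPM in Th0 (Slc4a1, Pf4 and Ppbp at 0). The myeloid list (11 of 12 genes in the table) summed to 58.8 to 64.3 CPM in naive cells (Csf1r at 0) and 91.7 to 95.3 CPM in Th0 (Csf1r, H2-Aa, Itgax and Lyz2 at 0). The part of these lists in the result was not tested. The members' median log2 fold change was -0.30, against -0.01 over all genes, and the small subunit (25 lower and 1 higher of 32, median -0.33) and the large (33 lower and 2 higher of 49, median -0.27) resembled each other. Rps6, the S6 kinase substrate of the small subunit, measured 2042 and 2126 CPM in naive and 1853 and 1791 CPM in Th0 libraries (-0.19 ± 0.07 SE). All 3 stalk genes fell, Rplp1 by 0.47, Rplp2 by 0.40 and Rplp0 by 0.28 on the log2 scale. Rpl5 (-0.42), which with Rpl11 binds Mdm2 when free of ribosomes, fell, whereas Rpl11 was at -0.10 and did not pass. Beyond the low-count Rps4l (-0.84 ± 0.36 SE, 1.41 to 3.76 CPM, called in 1 of 4 fits with a library left out), the largest falls were in Rps27 (-0.81 ± 0.09 SE), Rpl22l1 (-0.70 ± 0.11 SE), Rps24 (-0.62) and Rpl12 (-0.59).

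The 3 members that rose on activation were Rps27l, Rpl34 and Rpl7l1. Rps27l, a paralog of Rps27 known as a p53 target, measured 20.2 and 23 CPM in naive libraries and 132 and 108 CPM in Th0, a log2 fold change of 2.47 ± 0.12 SE (edgeR, adjusted p = 1.2e-10). Rps27 went the other way, from 806 and 819 CPM to 471 and 459 CPM (adjusted p = 8.4e-07). Per length, Rps27l was thus at 3.29% ± 0.27 (SD, n = 2) of the FPKM of Rps27 in naive cells and 31.9% ± 4.1 (SD, n = 2) in Th0. Rpl7l1 rose from 115 and 102 to 154 and 150 CPM (0.49 ± 0.11 SE) while Rpl7 fell (-0.32 ± 0.08 SE). Rpl34, whose reads are few, rose from 6.83 and 6.34 to 13.7 and 11.4 CPM (0.93 ± 0.18 SE). The pair Rpl22 and Rpl22l1, of which Rpl22 is needed for development of alpha-beta T cells, diverged in another way: Rpl22 was near level (-0.02), while Rpl22l1 went from 149 and 165 to 102 and 91.8 CPM.

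The other gene lists of protein synthesis and mitochondria had medians above that of the members. Of 76 mitochondrial ribosomal protein genes, 65 rose and 1 fell (median 0.74, Mrpl28 by 1.62), and of 81 tested genes named for the respiratory chain and its assembly factors, 69 rose and 2 fell (median 0.72). Of 48 ribosome biogenesis genes, which build the particle in the nucleolus, 32 rose and 4 fell (median 0.43, Nhp2 by 1.52 and Gnl3 by 1.45). Among 19 translation factors and other TOP mRNAs, 3 rose and 4 fell (median -0.04, Eif3l by 0.55 and Eef2 at -0.37). Myc, the activator of ribosome synthesis, was at 124 and 132 CPM in naive libraries and 264 and 296 CPM in Th0. Of 13 tested p53 response genes 7 rose and 4 fell. Bax, a death effector among them, went from 43.2 and 45.1 to 127 and 113 CPM, and Cdkn1a, which encodes the p21 cell cycle inhibitor, from 2 and 0 counts to 276 and 319.

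**Figure D3:**
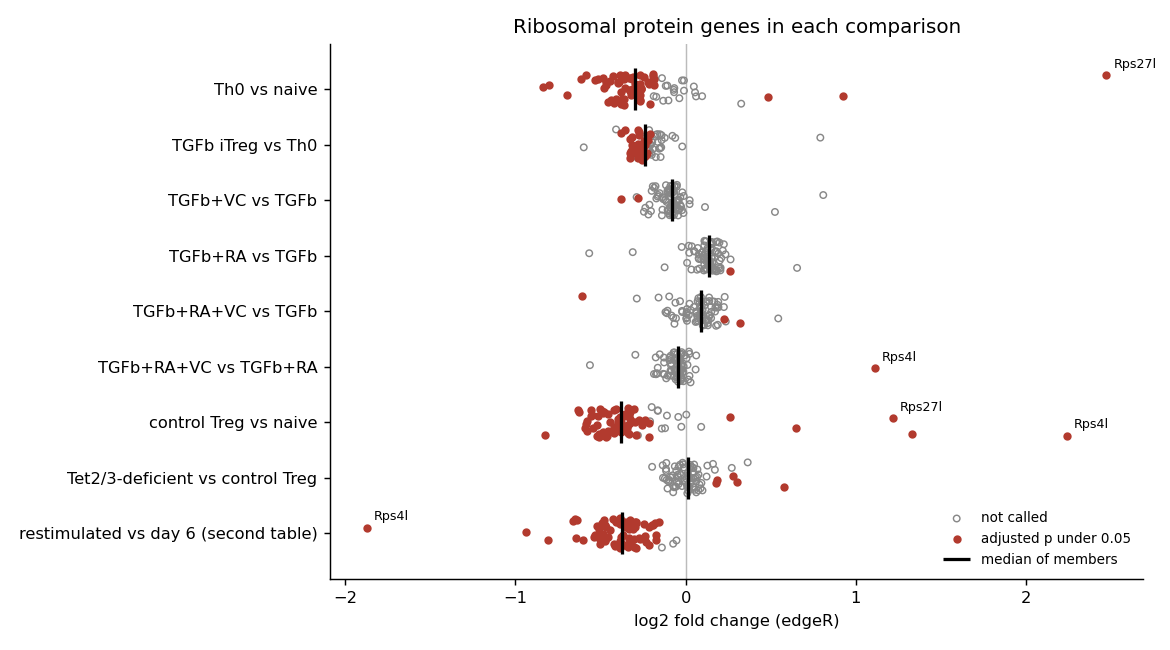
log2 fold change of each tested ribosomal protein gene in 9 comparisons (points, red where adjusted p was under 0.05), with the median of the members (bar). The members' median lies at -0.30 in Th0 and -0.38 in control Treg, both against naive cells. It lies at -0.37 in restimulated Foxp3-negative against day 6 Foxp3-positive cells and at 0.01 in Tet2/3-deficient against control Treg cells.

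With TGFb the members were lower again. Of 81 members, 38 were lower and 0 higher in TGFb iTreg than in Th0 (26.1% of all genes called, 14.5% as higher and 11.6% as lower). Their median was -0.24 against 0.00 over all genes. The unadjusted edgeR p was under 0.05 for 65 members and for 4386 of all 11287 genes, and DESeq2 called 0 members higher as well. Among the members called, Rpl28 had the largest fall (950 and 865 CPM in Th0, 698 and 697 CPM with TGFb; -0.38 ± 0.08 SE, adjusted p = 0.0021), and Rps27l (-0.36), Rpl35 (-0.32) and Rps19 (-0.32) fell as well. Rps19 is mutated in Diamond-Blackfan anaemia. The stalk genes fell by 0.27 to 0.30. Here the mitochondrial ribosomal (33 of 76 lower, 0 higher, median -0.33), biogenesis (23 of 48 lower, 0 higher, median -0.28) and respiratory chain genes (19 of 81 lower, 0 higher, median -0.23) had medians of the same sign. This count rested on few libraries: it was 1 without TGFb library 1, 1 without Th0 library 1, 20 without TGFb library 2 and 23 without Th0 library 2, with medians of -0.29 to -0.19. It shares the Th0 libraries with the comparison above. With TGFb the erythroid and platelet list summed to 130 to 179 CPM (Slc4a1, Pf4 and Ppbp at 0) and the myeloid list to 126 to 142 CPM (Csf1r and Lyz2 at 0), and their part was not tested.

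Few members were called with the supplements, and the comparisons with TGFb alone share its 2 libraries. In counts simulated for vitamin C against TGFb, 8% of 1.2-fold changes and 72% of 1.5-fold changes were called. The changed genes were drawn from all genes tested, and were fewer than the genes called in the real comparison. Members are more abundant than most genes, so these are not the rates for members. Small shifts of members could be missed at a rate that was not measured. In the cultures with supplements the erythroid and platelet list summed to 49.0 to 69.0 CPM with vitamin C, 38.8 to 71.3 CPM with retinoic acid and 8.66 to 16.3 CPM with both, and the myeloid list to 146 to 158, 70.5 to 85.6 and 95.9 to 102 CPM, with Csf1r and Itgax at 0 in each. The part of these lists was not tested. With vitamin C, 2 of 81 members were lower and 0 higher (16.8% of all genes called, 8.84% as higher and 7.99% as lower), with a median of -0.08. The unadjusted edgeR p was under 0.05 for 12 members and for 3583 of all 11287 genes. Rps27l went from 95.9 and 91.6 to 70.8 and 73.0 CPM (-0.38 ± 0.11 SE, adjusted p = 0.029). When any 1 of the 4 libraries was left out, 0 members were called. Rps6 (-0.09), Rpl5 (-0.07) and the stalk gene Rplp0 (-0.07) did not pass. In the same cells 17 of 48 biogenesis genes were lower and 0 higher (median -0.30, Gnl3 -0.58), as were 14 of 76 mitochondrial ribosomal genes (median -0.26).

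With retinoic acid Rpl22 was the only member of 81 called, as higher (16.5% of all genes called, 7.19% as higher and 9.29% as lower). It went from 364 and 383 to 422 and 472 CPM (0.26 ± 0.08 SE, edgeR, adjusted p = 0.042), and DESeq2, RLE factors and limma on FPKM did not call it. The members' median was 0.13 against 0.02 over all genes. It moved with 1 library: without retinoic acid library 2 the median was -0.01, and without library 1 it was 0.24 with 22 members called. Without either TGFb library 0 members were called.

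With both supplements 2 members were higher and 1 lower than with TGFb alone (37.5% of all genes called, 18.3% as higher and 19.2% as lower; median 0.09 against 0.01). Rpl22 measured 460 and 474 CPM (0.32 ± 0.08 SE, adjusted p = 0.0063) and Rpl18 951 and 933 CPM against 767 and 844 (0.23 ± 0.08 SE, adjusted p = 0.038), but they were called in 2 and 1 of the 4 fits with a library left out. The count of 3 was 1 without TGFb library 1 and 1 without library 2 of the cultures with both supplements. Rps27l measured 60.0 and 63.1 CPM (-0.61 ± 0.11 SE, adjusted p = 6.5e-04), below both TGFb libraries, and this was called without any 1 of the 4 libraries. Translation factors rose in 4 of 19 (Eif4b by 0.25) and fell in 0, while 13 of 48 biogenesis genes were lower and 0 higher. Cdkn1a was lower too, at 9.23 and 9.11 CPM against 51.4 and 45.6 CPM, as was Bax, at 61.3 and 68.6 against 111 and 110 CPM.

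With vitamin C added to retinoic acid Rps4l was the only member called, as higher (7.54% of all genes called, 4.31% as higher and 3.22% as lower, median of members -0.05). This low-count gene, whose reads may be shared with Rps4x, went from 1.5 and 2.27 to 3.90 and 4.23 CPM (1.11 ± 0.32 SE, edgeR, adjusted p = 0.045). It was called in 0 of the 4 fits with a library left out, and DESeq2 called 0 members; without retinoic acid library 1, 5 members were called. The difference between the vitamin C effects with and without retinoic acid was called for 0 of 81 members (0.0177% of all genes called), for Rps27l at 0.09. The unadjusted edgeR p was under 0.05 for 0 members and for 564 of all 11287 genes, and DESeq2 also called 0 members.

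Control Treg cells taken from mice had lower ribosomal protein mRNA than naive cells. Of 81 members 64 were lower and 5 higher (54.9% of all genes called, 28.6% as higher and 26.3% as lower), with a median of -0.38 against 0.01 over all genes. Rps23 (-0.83 ± 0.07 SE), Rps24 (-0.63), Rps27 (-0.63), Rplp2 (-0.59) and Rpl5 (-0.59) fell most, and Rps6 went from 2088 and 2187 CPM to 1380 to 1604 CPM. Rps27l rose again, from 20.6 and 23.7 to 47.1, 50.3, 57.8 and 50.8 CPM (1.22 ± 0.12 SE, adjusted p = 1.3e-05), with Rpl7l1 (0.26), Rpl34 (0.65), Rpl39l (1.33) and Rps4l (2.24 ± 0.27 SE, from 2.04 and 3.87 to 11.9 to 16.6 CPM). Respiratory chain genes rose in 43 of 81 and fell in 4 (median 0.31), and biogenesis genes rose in 6 of 48 and fell in 18 (median -0.13). The groups also differed in mouse age, genotype and the pseudogene counts given above, which cannot be told apart from the cell type. The naive libraries are those compared with Th0. Markers of other cells were higher in control Treg libraries, where none was at 0: 6 of 7 B cell genes in the table summed to 43.9 to 107 CPM against 2.12 to 3.01 in naive cells (Pax5 at 0), 11 of 12 myeloid genes to 242 to 355 against 58.8 to 64.3 CPM (Csf1r at 0), and 7 of 9 erythroid and platelet genes to 294 to 713 against 1.21 to 2.38 CPM (Hbb-b1 and Pf4 at 0). Their part in the result was not tested. Without scaling factors the median of all genes was 0.15, the split over all genes went from 3357 higher and 3082 lower to 4237 and 2184, and 6 members were higher and 47 lower. Without naive library 2, 43 members were called.

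In Tet2/3-deficient Treg cells most members did not pass the test against controls, and the paralogs Rps27l, Rpl7l1 and Rpl22l1 were among the 5 called higher. Of 81 members 5 were higher and 0 lower (32.5% of all genes called, 16.7% as higher and 15.8% as lower; DESeq2 called 6 higher and 1 lower), with a median of 0.01 against 0.00 over all genes. Rps6 measured 1535 to 1680 CPM in Tet2/3-deficient and 1433 to 1694 CPM in control libraries (0.01), and the stalk genes were at -0.03 to -0.01. Rps27l measured 82.0, 88.6, 76.0 and 75.9 CPM in the 4 deficient libraries and 49.7, 52.3, 60.9 and 52.8 CPM in the 4 controls (0.58 ± 0.08 SE, adjusted p = 3.1e-04). Rpl7l1 measured 175, 166, 167 and 170 against 131, 140, 146 and 142 CPM (0.28 ± 0.06 SE, adjusted p = 0.0030), and Rpl22l1 166, 141, 142 and 131 against 118, 115, 121 and 116 CPM (0.30 ± 0.07 SE, adjusted p = 0.0083). Each of these 3 was called in all 8 fits with a library left out. Their partners Rps27 (-0.08), Rpl7 (0.01) and Rpl22 (0.12) did not pass. In counts simulated for this comparison, 12% of 1.2-fold changes were called, in genes drawn from all those tested, which is not the rate for members. Rps26 (0.19, adjusted p = 0.031) and Rpl36a (0.18, adjusted p = 0.049) were called in 3 and 2 of those 8 fits.

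Genes that build ribosomes were higher in the deficient cells: 33 of 48 biogenesis genes were higher and 0 lower (median 0.30, Wdr12 by 0.68, Gar1 by 0.58), with Myc at 182 to 206 CPM against 127 to 136 CPM. Mitochondrial ribosomal genes were higher in 39 of 76 and lower in 0 (median 0.24) and respiratory chain genes in 42 of 81 and 0 (median 0.22). Of the cytosolic proteins outside the naming rule, Fau, which encodes Rps30 fused to a ubiquitin-like protein, was lower (-0.22 ± 0.07 SE) and the other 4 did not pass. Of 13 p53 response genes 1 was higher (Phlda3, 0.65) and 4 lower. Control library S4 had the lowest share of counts, 6.47%, and without it 14 members were called, 3 higher and 11 lower, with a median of -0.03; 3 were called without control S2, deficient S6 or deficient S8. The same erythroid and platelet list summed to 294 to 713 CPM in control and 198 to 409 CPM in deficient libraries and the myeloid list to 242 to 355 and 316 to 385 CPM. Their part in the result was not tested.

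**Figure D4:**
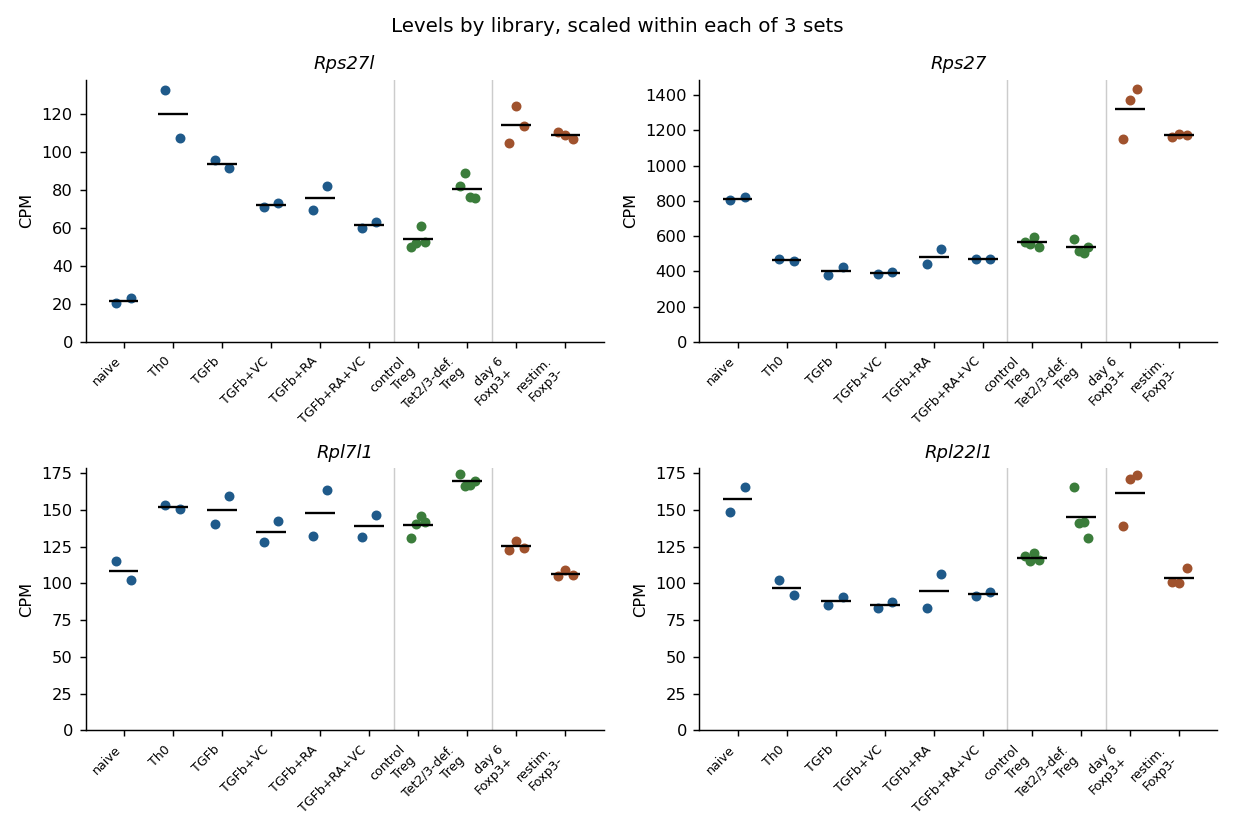
CPM of Rps27l, Rps27, Rpl7l1 and Rpl22l1 in each library (points) with the group mean (bar). Blue, green and brown points were scaled in 3 separate sets (naive and cultured, ex vivo Treg, second table) and are compared only within a set. Rps27l is lowest in naive cells (20.2 and 23 CPM) and Rps27 highest there within the blue set.

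Foxp3-negative cells sorted after restimulation had lower ribosomal protein mRNA than day 6 iTreg in nearly every member. The groups differ both in restimulation and in the Foxp3 gate of the sort, and these cannot be told apart. Of 80 members tested 77 were lower and 0 higher (68.8% of all genes called, 33.6% as higher and 35.2% as lower; DESeq2 called 0 higher as well), and the median was -0.37 against -0.01. Rps6 measured 3077, 3570 and 3464 CPM at day 6 and 2714, 2795 and 2706 CPM after restimulation (-0.30 ± 0.06 SE). The largest falls outside low-count genes were in Rpl41 (1369, 1720 and 1787 against 938, 947 and 897 CPM; -0.81 ± 0.08 SE, adjusted p = 2.2e-06), Rpl36a (-0.66) and Rpl28 (-0.65). Rps4l fell by 1.87 with 11, 22 and 26 counts against 2, 6 and 8, and Rpl34 by 0.94. Among those that did not pass were Rps19 (-0.14) and Rps27l (-0.07; 105, 124 and 113 against 110, 109 and 107 CPM). Per length, Rps27l was at 10.8% ± 0.8 (SD, n = 3) of Rps27 at day 6 and 11.5% ± 0.2 (SD, n = 3) after restimulation.

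Mitochondrial ribosomal genes (60 of 77 lower, 2 higher, median -0.34) and respiratory chain genes (69 of 83 lower, 2 higher, median -0.53) were lower in restimulated cells as well, whereas biogenesis genes split (12 of 48 higher, 19 lower, median -0.07; Rrp12 by 1.07, Ebna1bp2 at -0.66). The 4 tested proteins outside the naming rule fell, Fau by 0.63. Day 6 library 1 had the lowest Rps6 and Rpl41 of its group. The myeloid list (11 of 12 genes in the table) summed to 206 to 263 CPM at day 6 (Csf1r, Itgax and Lyz2 at 0) and 73.2 to 78.2 CPM after restimulation (Csf1r, H2-Aa and Itgax at 0). The erythroid and platelet list (7 of 9 genes) summed to 65.9 to 96.9 CPM at day 6 (Slc4a1, Pf4 and Ppbp at 0) and 21.6 to 27.2 CPM after restimulation (Hbb-b1, Slc4a1, Pf4 and Ppbp at 0). The part of both lists was not tested. Gene length moved with this result: over 11252 genes, the log2 fold change and exon length had a Spearman correlation of 0.33 (a description across genes, which share libraries), and the members are short, with a median of 776 exon bases against 3303. The same correlation was 0.31 for TGFb against Th0, -0.23 for Th0 against naive, -0.14 for control Treg against naive and -0.15 for Tet2/3 deficiency, and the part of length in these results was not tested.

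**Figure D5:**
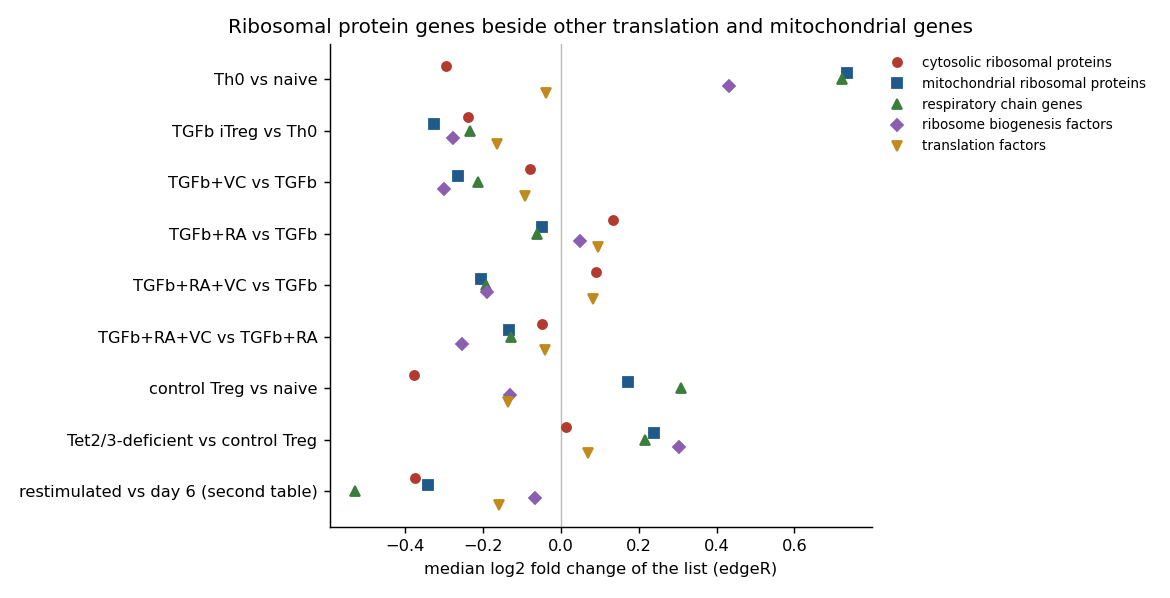
Median log2 fold change of 5 gene lists in 9 comparisons. In Th0 against naive cells the cytosolic ribosomal protein genes lie at -0.30 and the mitochondrial ribosomal genes at 0.74, in Tet2/3-deficient against control Treg cells at 0.01 and 0.24, and after restimulation at -0.37 and -0.34.

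Within the naive and cultured set the mean of Rps27l was 21.6 CPM in naive cells, 61.6 with both supplements, 71.9 with vitamin C, 75.6 with retinoic acid, 93.7 with TGFb alone and 120 in Th0. Vitamin C and retinoic acid cultures, neighbours in that order, overlapped in their libraries, and retinoic acid was not called against TGFb (-0.31, adjusted p = 0.069), though it was with RLE factors, with no count filter and with the replicate block. Bax, in the p53 list, had means lowest in naive cells and highest in Th0 as well, with both supplements lowest among the cultures. Cdkn1a differed in that it was higher with TGFb (51.4 and 45.6 CPM) than in Th0 (26.9 and 31.7 CPM). Of the 13 tested p53 response genes, 5 were called higher and 0 lower with TGFb than in Th0, where Rps27l was lower. Against TGFb, 1 was higher and 2 lower with vitamin C, 0 and 4 with retinoic acid, and 1 and 6 with both. A link between this list and Rps27l was not tested.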

How the data were processed

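Reads were processed by the authors against mm9; per the submitters' processing notes the tools included TopHat2 2.1.1 and edgeR 3.26.6, with Trim Galore 0.4.2, Picard 2.5.0 and SAMtools 1.7. The libraries were made with a stranded poly(A) kit, per the labels' protocols. The counting tool, annotation release and use of strand are not given in the sources used here. The deposited counts are whole numbers of reads over exons per gene, with 92 and 99 genes without a symbol. The deposited FPKM values divide these by exon length and library total; they served for levels compared between genes and for 1 alternative. The deposited RPM table was not used here.

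Counts were fitted with edgeR 4.0.16 in R 4.3.3: TMM factors, filterByExpr, robust quasi-likelihood tests, 2-sided, Benjamini-Hochberg adjustment over all genes tested, threshold 0.05. Naive and cultured groups shared a fit; each other comparison was fitted on its own libraries. Levels in CPM use TMM-scaled totals, except markers, Foxp3, Myc, Bax, Cdkn1a and the pseudogene comparison, which use raw totals. Columns of ex vivo Treg libraries show the group but match no single sample, so S1 to S8 are column names. The scripts were tested on simulated data.

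Members and gene lists were chosen with earlier results of these data known. Named genes come from the paralog pairs, stalk genes and 8 others followed throughout, up to 5 called members in each direction per comparison, and up to 4 called genes per other list; the examples described, Myc, Bax, Cdkn1a, Rps14 and the pseudogenes were picked after their values were seen. Alternatives were DESeq2 1.42.0, RLE factors, totals and factors without the members, no count filter, limma 3.58.1 on log2(FPKM + 1), a replicate block, each library left out, and, added after seeing the data, totals without factors. Values of some genes are not reported here.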

Additional observations from a re-analysis of the deposited data

How the results depend on the processing

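With each library left out in turn, the number of members called ran from 36 to 54 for Th0 against naive, 1 to 23 for TGFb against Th0, 0 to 0 for vitamin C, 0 to 22 for retinoic acid, 1 to 3 for both supplements against TGFb, 0 to 5 for vitamin C added to retinoic acid, 43 to 69 for control Treg against naive, 3 to 14 for Tet2/3 deficiency and 69 to 79 for restimulation. Where that leaves 1 library in a group, the lone library is assumed to vary like the others. TGFb against Th0 had 38 calls, 23 with totals and no factors and 13 with limma on FPKM. Vitamin C had 2, and 1 with no factors (lower) and 1 with limma (higher). Retinoic acid had 1, and 2 with no factors, 3 with no count filter, 0 with DESeq2 and 0 with limma. Vitamin C added to retinoic acid had 1, and 0 with DESeq2. Tet2/3 deficiency had 5, and 8 with no factors and 9 with limma. The cause was not tested. The share of all genes called in each of these fits is not given here, so a change in the members' count may be shared by all genes.

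With each library left out, the median for retinoic acid ran from -0.0087 (without its library 2) to 0.24, with Rplp0 from -0.0098 to 0.27, Rps14 from -0.028 to 0.38 and Rps3 from -0.0087 to 0.32. That for vitamin C added to retinoic acid ran from -0.16 to 0.070 (without retinoic acid library 2), and that for Tet2/3 deficiency from -0.031 (without control S4) to 0.038. By share of FPKM the members took 23.8% in naive cells and 16.9% to 19.7% in the other groups of the first table, and 30.8% at day 6 and 28.3% after restimulation in the second. A fit with the replicate number as a block gave 62 member calls for TGFb against Th0, 8 for vitamin C, 5 for retinoic acid and 10 for both supplements against TGFb. The share of all genes called in the block fit is not given here. The numbers are not known to pair cultures. Deviations of same-numbered libraries correlated at 0.01 to 0.38 over all genes with 2 pairs, and at 0.08, 0.09 and 0.18 with 3 pairs in the restimulation set. Over the members alone the values ran from -0.22 to 0.74 with 2 pairs, the highest for TGFb against Th0. In the restimulation set they were 0.69, -0.14 and 0.72. No paired analysis was possible because the ex vivo Treg columns carry no number of the labels, for control Treg against naive and for Tet2/3 deficiency. The median shift of the members between the 2 libraries of a group reached 0.22 with retinoic acid and 0.12 with TGFb, and was under 0.1 in the other 4 groups of 2.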
